A study of Cloeon viridulum with 15 samples.

Results

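The Broad-complex unigenes described here are 4 of 91881 assembled transcript sequences (unigenes) of the mayfly Cloeon viridulum, listed because the best protein hit of each is named as a Broad-complex isoform. Unigene 13_Contig_15337 is 6628 bp long and has as best hit isoform Z3 of the cockroach Blattella germanica. Unigene 13_Contig_3631 is 3495 bp long and has as best hit isoform Z1 of the same cockroach. Unigene 13_Contig_1375 is 5431 bp long and matches the Broad-complex core protein isoform 6 of the ant Harpegnathos saltator. Unigene 13_Contig_5238 is 756 bp long and matches Broad-complex core protein isoforms 1/2/3/4/5 of the honeybee Apis cerana. They are called the Z3, the Z1, the isoform 6 and the isoforms 1/2/3/4/5 unigene below. A further 2 unigenes have a best hit named Broad-complex, so that 6 carry the name in all. One, 13_Contig_15024, is 1170 bp long and matches Broad-complex of the cockroach Diploptera punctata, and the other, 13_Contig_8397, is 936 bp long and matches the same Apis cerana protein as the isoforms 1/2/3/4/5 unigene. A best hit does not show that a unigene comes from the mayfly's Broad gene, and unigenes may be pieces or near copies of 1 gene between which reads were split in a way not given in the sources used here. No genome position, strand or sequence of the unigenes was used here.

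Broad, also called the Broad-complex, is a family of transcription factors made from 1 gene in the fruit fly. Each form joins a shared BTB domain, through which the proteins pair, to 1 of several alternative zinc finger pairs, after which the isoforms are named. In insects with complete metamorphosis Broad is an early response gene of the moulting hormone ecdysone and specifies the pupa. In insects without a pupa, such as cockroaches, it is known from the juvenile stages, where it acts in wing growth. Mayflies moult once more after they gain wings, from the winged subimago to the imago, which is the adult.

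Whole-body RNA was sequenced in 5 groups of 3 libraries, which were the young larva, the mature larva, the subimago, the imago and a mixture that combines the 4 stages. Each library is a pool: 10 animals for young larvae, 6 animals (3 of each sex) for every later stage, and 11 animals for the mixture, of which 5 were young larvae and 2 came from each later stage. Wild young larvae were collected from a pool of water and the later stages were raised from them at 22 °C, with no treatment in any group. Replicates are described as biological in the labels, with nothing further on which animals went into which pool, so p-values measure the spread between pools. The question put to the 4 unigenes is how each differs between stages during this form of metamorphosis.

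Each library held between 36550269 and 74837923 assigned reads. The summed muscle, gut, eye, cuticle, egg yolk and sperm marker lists each had reads in all 15 libraries, although single unigenes of these lists had none in some. Egg yolk was near 0 in young larvae. Mature larva replicate 1 stood apart from the other libraries of its stage. It had reads on 75863 unigenes, against 46421 and 47983 in mature larva replicates 2 and 3, and 2.45% of its reads fell on unigenes whose best hit was a protist or a fungus, against 0.194% and 0.277%. The same share was 1.74% to 8.00% in young larvae. Its values are marked, and results of mature larvae are given without it where this ends a call or moves a value by much.

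All 4 Broad-complex unigenes passed the filter on low counts. The smallest count behind any of their values was 200 reads, for the Z1 unigene in subimago replicate 1, with an exact 95% Poisson interval of 173 to 230 that covers counting error only. Levels are the deposited RPKM, a read count scaled by unigene length and library total, which can be compared between unigenes of unlike length. Log2 changes come from edgeR's quasi-likelihood test on the counts of all 34131 unigenes tested, with Benjamini-Hochberg adjustment over all of them, and a change with an adjusted p under 0.05 was called.

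The Z3 and Z1 unigenes were highest in the young larva and low in both winged stages. The Z3 unigene had 38.03, 38.9 and 33.3 RPKM in young larvae, 13.5, 3.74 and 1.75 RPKM in mature larvae, 1.28, 1.80 and 1.08 RPKM in subimagoes and 2.14, 1.86 and 1.49 RPKM in imagoes. All young larva libraries lay above every library of the other stages, and within mature larvae the level differed from library to library by more than in any other stage. The mixture libraries had 3.74, 5.71 and 1.68 RPKM. The Z1 unigene had 26.5, 31.8 and 29.4 RPKM in young larvae, 11.8, 3.82 and 1.62 RPKM in mature larvae, 1.35, 2.01 and 1.71 RPKM in subimagoes and 1.80, 1.34 and 1.42 RPKM in imagoes. Young larvae again lay above all other stages and mature larvae above the winged stages by mean, with mature larva replicate 1 highest and replicate 3 lowest among mature larvae for both. The mixture libraries had 3.72, 4.65 and 1.61 RPKM of the Z1 unigene.

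The isoform 6 unigene was highest in the mature larva. It had 4.13, 6.29 and 3.90 RPKM in young larvae, 27.5, 31.5 and 46.8 RPKM in mature larvae, 16.3, 12.5 and 6.65 RPKM in subimagoes and 7.82, 6.06 and 7.38 RPKM in imagoes. The mature larva libraries did not overlap those of any other stage, while subimago and imago libraries overlapped each other. The mixture libraries had 13.4, 12.7 and 19.7 RPKM of it.

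The isoforms 1/2/3/4/5 unigene was lowest in the young larva and highest in the winged stages. It had 58.3, 66.4 and 59.2 RPKM in young larvae, 157, 95.5 and 158 RPKM in mature larvae, 238, 297 and 213 RPKM in subimagoes and 308, 263 and 319 RPKM in imagoes. The levels of young larvae, of mature larvae and of both winged stages did not overlap, while subimagoes and imagoes overlapped each other. The mixture libraries had 178, 134 and 145 RPKM of it. By mean RPKM it stood at percentile 93.9 of the tested unigenes with an arthropod best hit in young larvae, 98.8 in mature larvae, 99.5 in subimagoes and 99.6 in imagoes. The Z3 unigene stood at percentile 88.6 of the same unigenes in young larvae, 44.6 in mature larvae, 28.5 in subimagoes and 33.3 in imagoes.

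**Figure D1:**
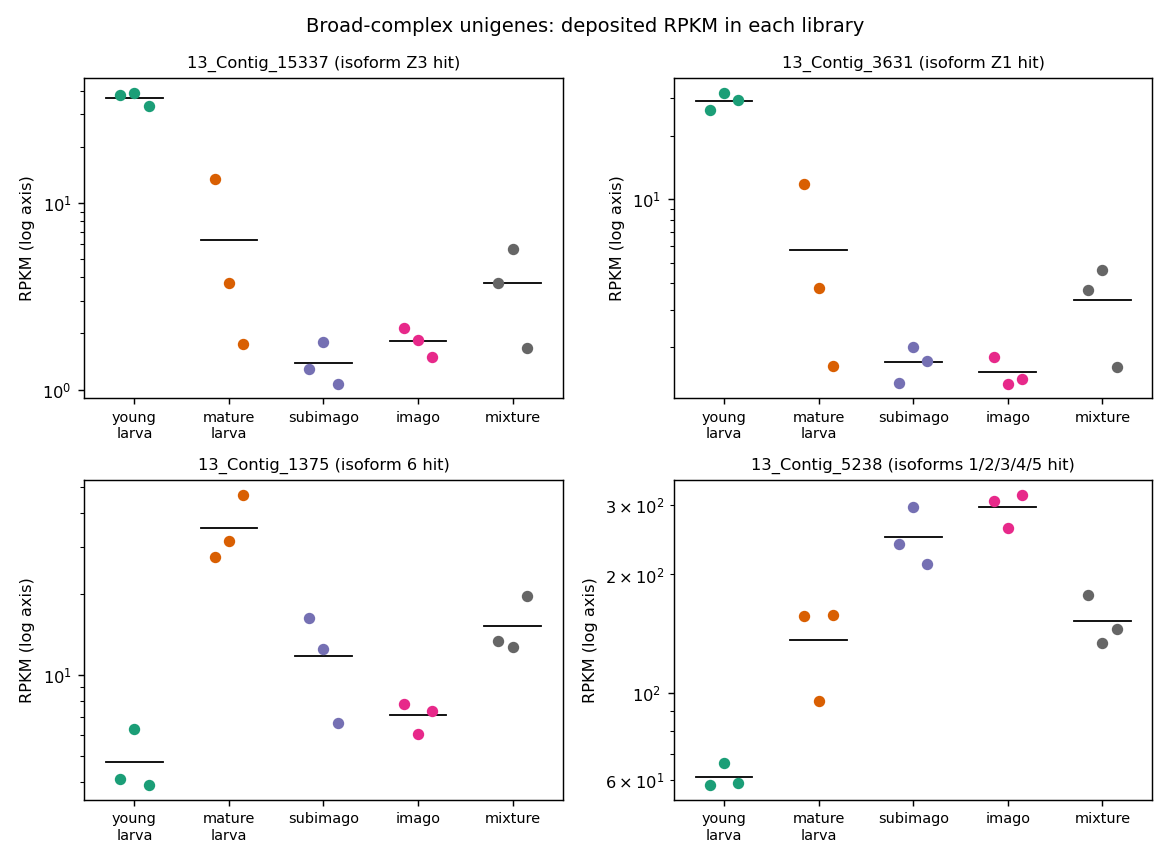
Deposited RPKM (log axis, each panel with its own range) of the 4 Broad-complex unigenes in the 3 libraries of each stage and of the mixture; points are libraries and bars are group means. The Z3 and Z1 unigenes were highest in young larvae, the isoform 6 unigene in mature larvae, and the isoforms 1/2/3/4/5 unigene in subimagoes and imagoes.

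From the young to the mature larva, 2 of the 4 unigenes fell and 2 rose. Over all unigenes tested, 35.1% were called in this comparison, 25.3% as higher and 9.73% as lower in mature larvae, and the median log2 change was -0.054. The Z3 unigene averaged 6.33 ± 6.29 RPKM in mature larvae and 36.7 ± 3.02 RPKM in young larvae (SD, n = 3 each), and its log2 change was -2.14 ± 0.52 (SE, adjusted p = 0.00685). The Z1 unigene averaged 5.74 ± 5.35 RPKM in mature larvae and 29.2 ± 2.65 RPKM in young larvae, with a log2 change of -1.93 ± 0.50 (adjusted p = 0.00891). For isoform 6 the mean was 35.3 ± 10.2 RPKM in mature larvae and 4.78 ± 1.32 RPKM in young larvae, with a log2 change of 3.50 ± 0.34 (adjusted p = 3.72e-06). This is a fitted rise of 11.3 times, the largest of the 4 at any step between successive stages. For isoforms 1/2/3/4/5 the mean was 137 ± 35.6 RPKM in mature larvae and 61.3 ± 4.42 RPKM in young larvae, and its log2 change was 1.68 ± 0.14 (adjusted p = 9.41e-07). All 4 calls held without mature larva replicate 1, where the log2 changes were -2.89, -2.57, 3.80 and 1.78 for the Z3, Z1, isoform 6 and isoforms 1/2/3/4/5 unigene. In bulk RNA, fewer cells of a type and less RNA per cell cannot be told apart in any of these differences.

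Markers of tissues differed between stages as well, some in the direction of the Z3 and Z1 unigenes and some in that of the other 2. Of the 28 unigenes found by the names myosin heavy chain, tropomyosin or troponin, 2 are named non-muscle or 95F myosin and were left out here after the values were seen. The summed level of the other 26 muscle unigenes was 18648 to 28019 CPM (counts scaled to library size, here after TMM scaling) in young larvae, 1719 to 6758 in mature larvae, 656 to 938 in subimagoes and 797 to 920 in imagoes. Mature larva replicate 1 had 6758, against 2321 and 1719 in replicates 2 and 3, the same order as for the Z3 and Z1 unigenes. Of 21 muscle unigenes tested, 11 fell and 1 rose in mature larvae relative to young larvae, where 9.73% of all unigenes fell and 25.3% rose. In subimagoes relative to mature larvae 9 fell and 2 rose, where 14.2% of all unigenes fell and 8.98% rose. Of the 26, 18 had reads in all 15 libraries, while 1 was at 0 in all young larvae, 3 in all mature larvae and 1 in all imagoes.

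Levels were set against this sum, a ratio chosen after the values were seen, and not against gut or eye sums. A sum already seen to fall as the Z3 and Z1 unigenes did gives them a flatter ratio. An overlap of stages here thus cannot tell whether muscle content set their levels. The Z3 unigene had 6.98 to 11.2 CPM per 1000 CPM of muscle unigenes in young larvae, 7.96 to 16.7 in mature larvae, 8.11 to 15.5 in subimagoes and 9.18 to 14.7 in imagoes, so that the 4 stages overlapped. On the same scale the Z1 unigene had 3.25 to 4.31 in young larvae, 3.89 to 9.01 in mature larvae, 4.49 to 10.6 in subimagoes and 4.60 to 6.53 in imagoes, so that young larvae overlapped mature larvae but lay below both winged stages. With all 28 unigenes in the sum, the young larvae of Z1, at 3.20 to 4.22, overlapped the subimagoes, at 3.44 to 7.34, and the imagoes, at 3.36 to 4.65. The isoform 6 unigene had 0.671 to 1.32 in young larvae and 20.5 to 175 in mature larvae on this scale, which did not overlap. Its 64.2 to 88.8 in subimagoes and 35.4 to 44.0 in imagoes lay within the mature larva range. The lowest value of that range was mature larva replicate 1. Replicates 2 and 3, at 115 and 175, lay above both winged stages. The isoforms 1/2/3/4/5 unigene had 1.42 to 1.97 in young larvae and 16.3 to 82.0 in mature larvae. It had 172 to 293 in subimagoes and 213 to 242 in imagoes, and only these winged stages overlapped.

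Gut markers (85 unigenes named trypsin or chymotrypsin, without those named inhibitor) summed to 1809 to 8069 CPM in young larvae, 318 to 2543 in mature larvae, 555 to 717 in subimagoes and 190 to 228 in imagoes. Eye markers (14 unigenes) summed to 2200 to 2914 CPM in young larvae, 1338 to 2248 in mature larvae, 312 to 510 in subimagoes and 249 to 285 in imagoes. For gut, mature larva replicate 1 had 2543 CPM, above young larva replicate 2 at 1809. Mature larva replicates 2 and 3 had 318 and 336 CPM, below all subimago libraries. A fall of the gut sum from mature larva to subimago thus rested on replicate 1. The order of the eye sums by stage was close to that of the Z3 and Z1 unigenes, but single eye unigenes differed. Of 13 tested, 5 rose and 4 fell from young to mature larva (median log2 change -0.27), where 25.3% of all unigenes rose and 9.73% fell. From mature larva to subimago 0 rose and 7 fell, where 8.98% of all unigenes rose and 14.2% fell. Other lists ran in other directions. The 2 egg yolk (vitellogenin) unigenes summed to 0.0936 to 0.236 CPM in young larvae, 123 to 297 in mature larvae, 138 to 220 in subimagoes and 230 to 401 in imagoes, and 1 of them could be tested, with a log2 change of 10.18 from young to mature larva. The 21 sperm unigenes summed to 39.4 to 64.3 CPM in young larvae, 80.1 to 96.4 in mature larvae, 79.1 to 104 in subimagoes and 150 to 152 in imagoes. Yolk and sperm sums were thus low where the isoforms 1/2/3/4/5 unigene was low, but single sperm unigenes did not all follow their sum. Of 8 tested, 2 rose and 1 fell from young to mature larva (median log2 change -0.34). From mature larva to subimago 1 rose and 2 fell (median -0.61), with the shares over all unigenes as given for the eye markers. Of the 21, 7 were at 0 in all subimagoes. The 36 cuticle unigenes summed to 1803 to 1927 CPM in young larvae, 614 to 1020 in mature larvae, 3470 to 6761 in subimagoes and 43.7 to 55.5 in imagoes. The part of tissue makeup, or of the protist and fungal reads, in the levels of the 4 Broad-complex unigenes was not tested.

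From the mature larva to the subimago, 3 of the 4 unigenes fell and 1 rose, against 23.1% of all unigenes called, 8.98% as higher and 14.2% as lower in subimagoes, with a median log2 change of -0.28. The Z3 unigene averaged 1.39 ± 0.37 RPKM in subimagoes and 6.33 ± 6.29 RPKM in mature larvae, and the log2 change was -2.35 ± 0.53 (adjusted p = 0.0148). The Z1 unigene averaged 1.69 ± 0.33 RPKM in subimagoes and 5.74 ± 5.35 RPKM in mature larvae, and the log2 change was -1.91 ± 0.50 (adjusted p = 0.0244). For both, RPKM of subimagoes overlapped that of mature larva replicate 3. In CPM after TMM scaling, the scale of the test, only the Z1 unigene overlapped. The Z3 unigene there had at most 10.2 CPM in subimagoes and at least 13.7 CPM in mature larvae. For isoform 6 the mean was 11.8 ± 4.86 RPKM in subimagoes and 35.3 ± 10.2 RPKM in mature larvae, and the log2 change was -1.96 ± 0.32 (adjusted p = 0.00328). For isoforms 1/2/3/4/5 the mean was 249 ± 42.9 RPKM in subimagoes and 137 ± 35.6 RPKM in mature larvae, with a log2 change of 0.60 ± 0.14 (adjusted p = 0.0150).

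Of these 4 calls, that of the isoform 6 unigene held whichever library was left out. Without mature larva replicate 1, its log2 change was -2.22 (adjusted p = 0.000773). The Z3 unigene then had -1.55 (adjusted p = 0.0362), the Z1 unigene -1.22 (adjusted p = 0.0943) and the isoforms 1/2/3/4/5 unigene 0.55 (adjusted p = 0.0523), so that 2 of 4 were called. The Z3 and Z1 unigenes were not called either when any 1 of the 3 subimago libraries was left out, with adjusted p from 0.0543 to 0.0646 for Z3 and from 0.0657 to 0.0856 for Z1. The isoforms 1/2/3/4/5 unigene was not called without subimago replicate 2 (adjusted p = 0.0626). The number of all unigenes called in this comparison also moved with the library left out: 3064 were higher and 4833 lower in subimagoes with all libraries, 783 higher and 1067 lower without subimago replicate 2, and 4577 higher and 6231 lower without mature larva replicate 3.

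From the subimago to the imago, the last moult, 0 of the 4 unigenes were called, against 16.0% of all unigenes (6.74% higher and 9.26% lower in imagoes). DESeq2 also called 0 of 4, and 1 of 4 had an unadjusted p under 0.05 in both tools. The isoform 6 unigene averaged 7.09 ± 0.92 RPKM in imagoes and 11.8 ± 4.86 RPKM in subimagoes, with a log2 change of -0.86 ± 0.31 (adjusted p = 0.0843). It was called without mature larva replicate 1 (adjusted p = 0.0318), a library outside this comparison that shares in the estimate of spread. The Z3 unigene averaged 1.83 ± 0.33 RPKM in imagoes and 1.39 ± 0.37 RPKM in subimagoes, with a log2 change of 0.26 ± 0.51 (adjusted p = 0.860). The Z1 unigene averaged 1.52 ± 0.25 RPKM in imagoes and 1.69 ± 0.33 RPKM in subimagoes, with a log2 change of -0.34 ± 0.48 (adjusted p = 0.776). For isoforms 1/2/3/4/5 the mean was 297 ± 29.9 RPKM in imagoes and 249 ± 42.9 RPKM in subimagoes, with a log2 change of 0.08 ± 0.14 (adjusted p = 0.813). The standard errors of the Z3 and Z1 unigenes leave room for changes of either sign.

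**Figure D2:**
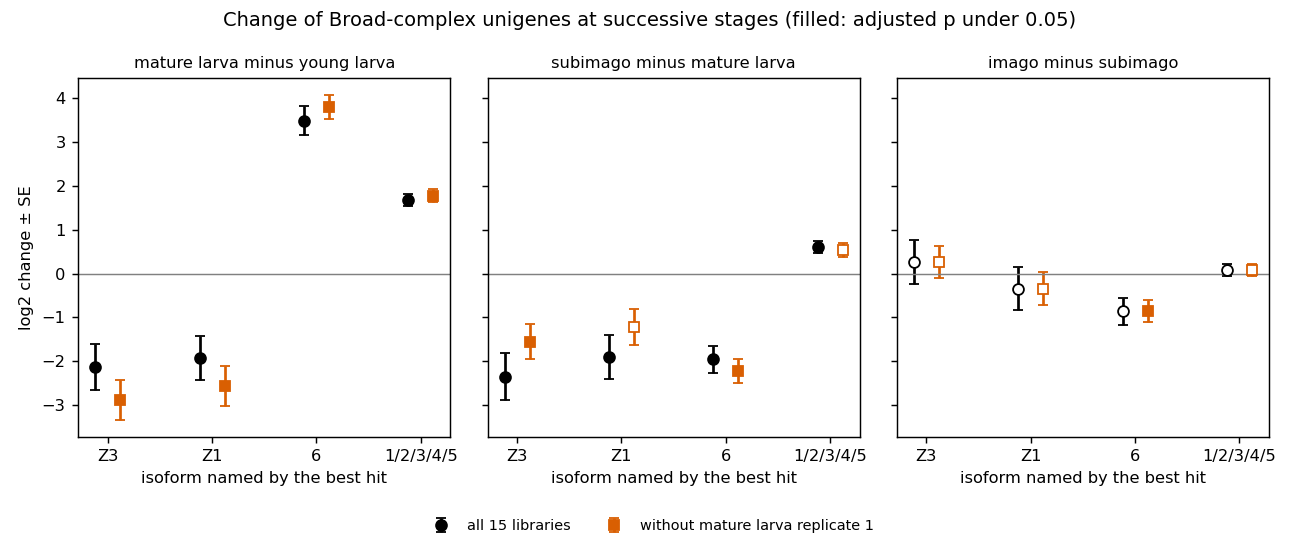
Log2 change ± SE of the 4 Broad-complex unigenes, named on the x axis by the isoform of their best hit, at each step between successive stages, fitted with all 15 libraries (black circles) and without mature larva replicate 1 (orange squares); filled symbols have an adjusted p under 0.05. The change of the isoform 6 unigene was 3.50 and then -1.96, and without mature larva replicate 1 the Z1 and isoforms 1/2/3/4/5 unigenes lost their call from mature larva to subimago.

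Stages that do not follow each other were compared too. Subimagoes against young larvae had 4 of 4 called, 2 higher and 2 lower, where 65.4% of all unigenes were called (29.7% higher and 35.7% lower). The log2 changes were -4.49 ± 0.58 for the Z3 unigene, -3.83 ± 0.54 for the Z1 unigene, 1.54 ± 0.31 for the isoform 6 unigene and 2.28 ± 0.14 for the isoforms 1/2/3/4/5 unigene. The Z3 unigene was thus 22.4 times lower in subimagoes by the fit. Imagoes against mature larvae also had 4 of 4 called, 1 higher and 3 lower, with 43.5% of all unigenes called (16.5% higher and 27.0% lower). The isoform 6 unigene had the largest of these changes, -2.82 ± 0.33, or 7.05 times lower in imagoes. The Z3 unigene had -2.09 ± 0.52 and the Z1 unigene -2.25 ± 0.50 in this comparison, and without mature larva replicate 1 they had -1.29 (adjusted p = 0.0341) and -1.56 (adjusted p = 0.0160). Imagoes against young larvae had 3 of 4 called, 1 higher and 2 lower, with 70.4% of all unigenes called (28.8% higher and 41.5% lower). The isoform 6 unigene was not among them (log2 change 0.68 ± 0.31, adjusted p = 0.0656), and its imago and young larva libraries overlapped in RPKM but not in CPM after TMM scaling, the scale of the test, where imagoes lay above. It was called in that comparison without mature larva replicate 1 (adjusted p = 0.0183) or 3 (0.0452), subimago replicate 1 (0.0433) or mixture replicate 2 (0.0474).

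By these tests with all 15 libraries, the Z3 and Z1 unigenes each ranked young larva above mature larva above the pair of winged stages, whose difference was not called. The isoforms 1/2/3/4/5 unigene ranked the pair of winged stages above mature larva above young larva. For all of these unigenes the call from mature larva to subimago was lost with some single libraries left out, as given above. For Z1 the libraries of these 2 stages also overlapped in RPKM and in CPM. The isoform 6 unigene ranked mature larva first, then subimago, then imago, then young larva. Of the neighbours in this order of the isoform 6 unigene, neither imago against subimago nor imago against young larva was called. Both changes exceeded 2 SE and the libraries of each pair did not overlap in CPM. Imagoes had 32.5 to 35.1 CPM, subimagoes 44.5 to 79.1 CPM and young larvae 18.8 to 24.7 CPM.

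The mixture gave a separate pool in which all stages were present. Its egg yolk sum, 611 to 832 CPM, lay above that of every stage library, of which the highest had 401 CPM. The mixture is thus not a plain average of the stage libraries. Young larvae against the mixture had 4 of 4 called, 2 higher and 2 lower, where 57.0% of all unigenes were called (27.9% higher and 29.1% lower). The log2 changes were 2.80 ± 0.54 for the Z3 unigene, 2.62 ± 0.51 for the Z1 unigene, -2.28 ± 0.32 for the isoform 6 unigene and -1.88 ± 0.14 for the isoforms 1/2/3/4/5 unigene. Mature larvae against the mixture had 0 of 4 called by edgeR, 1 of 4 by DESeq2 and 1 of 4 at an unadjusted p under 0.05, where 1.1% of all unigenes were called (0.352% higher and 0.744% lower). The 1 was the isoform 6 unigene in each case, and edgeR called it as well without mature larva replicate 1 or mixture replicate 3. Subimagoes against the mixture had 0 of 4 called by edgeR and 2 of 4 by DESeq2, although 4 of 4 had an unadjusted p under 0.05, where 2.29% of all unigenes were called (0.589% higher and 1.7% lower). The Z3 unigene was called by edgeR as lower in subimagoes without mature larva replicate 1 or 3. Imagoes against the mixture had 2 of 4 called (3 by DESeq2), the isoform 6 unigene as lower (-1.61 ± 0.31) and the isoforms 1/2/3/4/5 unigene as higher (0.49 ± 0.14), where 16.7% of all unigenes were called (5.22% higher and 11.5% lower). That count was 1 to 4 when single libraries were left out, with 1 of 4 without young larva replicate 2, subimago replicate 2, mixture replicate 2 or any imago library, and 4 of 4 without mature larva replicate 1 or 3. The comparisons with the mixture share its 3 libraries.

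The makeup of the 4 unigenes, which does not depend on how libraries are scaled, changed with stage. Shares in 1 sum are bound to each other, so that one cannot rise without another falling. As a share of their summed RPKM within a library, the Z3 unigene averaged 27.8% in young larvae, 3.36% in mature larvae, 0.519% in subimagoes and 0.601% in imagoes. The Z1 unigene averaged 22.1%, 3.08%, 0.645% and 0.496% in the same order of stages. Together they thus made up about as much as the isoforms 1/2/3/4/5 unigene in young larvae and little in the winged stages. Isoform 6 averaged 3.58% in young larvae, 19.7% in mature larvae, 4.44% in subimagoes and 2.31% in imagoes. Isoforms 1/2/3/4/5 averaged 46.4% in young larvae, 73.9% in mature larvae, 94.4% in subimagoes and 96.6% in imagoes. Without replicate 1, the mature larva means were 1.81% for Z3, 1.81% for Z1, 22.97% for isoform 6 and 73.4% for isoforms 1/2/3/4/5. An exact permutation test of the 4 stage labels over the 12 stage libraries (F statistic, 4 tests) gave p = 0.000260 for the Z3 unigene (adjusted p = 0.000346), p = 0.000130 for the Z1 unigene (adjusted p = 0.000260) and p = 0.00149 for the isoform 6 unigene (adjusted p = 0.00149). For the isoforms 1/2/3/4/5 unigene it gave p = 6.5e-05, the smallest that this exact test can give (adjusted p = 0.000260). Between 2 successive stages, 3 libraries against 3 cannot go below an exact two-sided p of 0.1. That smallest value was reached by all 4 unigenes between young and mature larvae and between mature larvae and subimagoes. Between subimagoes and imagoes it was reached by the isoform 6 and isoforms 1/2/3/4/5 unigenes only, with exact p = 0.4 for Z3 and 0.2 for Z1.

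**Figure D3:**
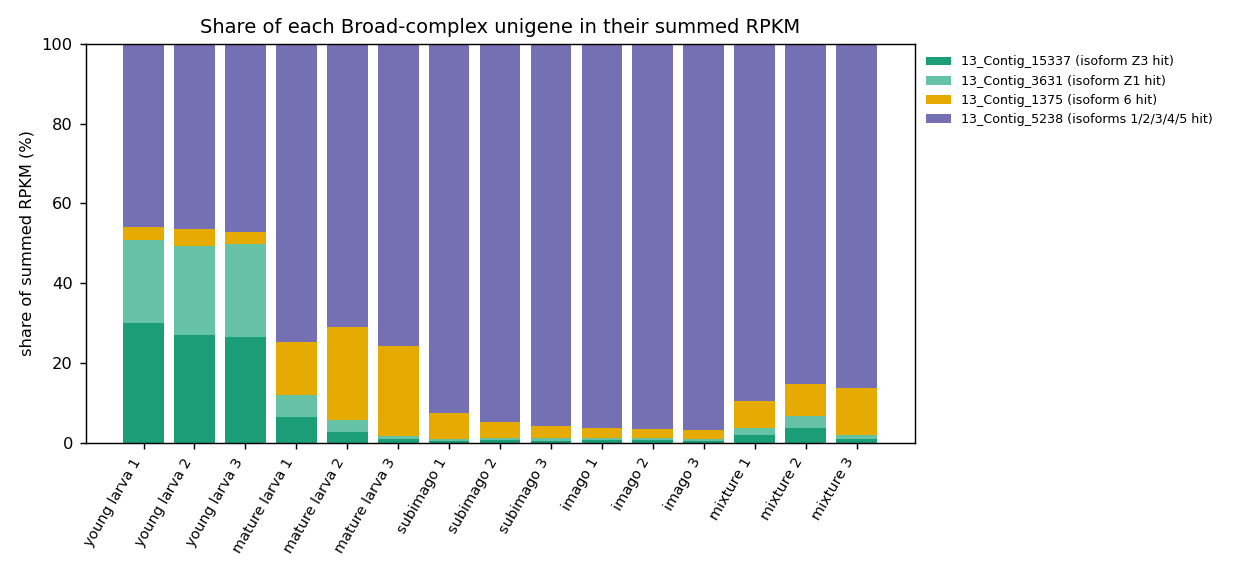
Share (%) of each of the 4 Broad-complex unigenes in their summed RPKM, 1 bar per library. The isoforms 1/2/3/4/5 unigene took 45.9% to 47.1% in young larvae and 96.3% to 96.9% in imagoes, and the isoform 6 unigene 13.1% to 23.4% in mature larvae.

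The 6 unigenes named Broad-complex fell into 3 patterns over the 12 stage libraries. On log2(CPM + 1), Pearson's r was 0.991 between the Z3 and Z1 unigenes, 0.990 between the Z3 unigene and 13_Contig_15024, and 0.997 between the isoforms 1/2/3/4/5 unigene and 13_Contig_8397. Between the Z3 and the isoforms 1/2/3/4/5 unigene r was -0.956, while the isoform 6 unigene had r of -0.299 with Z3 and 0.373 with isoforms 1/2/3/4/5. Without mature larva replicate 1 the last 3 were -0.983, -0.404 and 0.396. These are descriptions over libraries that share their stage and, within a library, their depth. Unigene 13_Contig_15024 had 33.1, 29.6 and 30.5 RPKM in young larvae, 11.1, 3.35 and 1.23 RPKM in mature larvae, 0.927, 1.82 and 1.37 RPKM in subimagoes and 2.16, 2.00 and 2.28 RPKM in imagoes, in the pattern of the Z3 and Z1 unigenes. Unigene 13_Contig_8397 had 11.6, 12.7 and 11.6 RPKM in young larvae, 30.7, 20.7 and 29.6 RPKM in mature larvae, 49.0, 61.6 and 42.7 RPKM in subimagoes and 57.4, 54.1 and 69.9 RPKM in imagoes, in the pattern of the isoforms 1/2/3/4/5 unigene. From young larva to mature larva and from mature larva to subimago, the log2 changes were -2.17 (adjusted p = 0.00722) and -2.06 (adjusted p = 0.0248) for 13_Contig_15024, and 1.70 (adjusted p = 1.34e-06) and 0.64 (adjusted p = 0.0145) for 13_Contig_8397. The calls from mature larva to subimago were lost without mature larva replicate 1 (adjusted p = 0.109 for 13_Contig_15024 and 0.0554 for 13_Contig_8397) or subimago replicate 2 (0.0781 and 0.0668), and that of 13_Contig_15024 also without subimago replicate 1 (0.0818) or 3 (0.0693).

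Ratios within a library, compared after the values had been seen, show how closely the partners kept together. The isoforms 1/2/3/4/5 unigene had 4.56 to 5.37 times the RPKM of 13_Contig_8397 over the 12 stage libraries, and this ratio did not differ detectably between stages (exact permutation p = 0.767, adjusted p = 0.767 over 3 ratios). The Z3 unigene had 0.654 to 1.42 times the RPKM of 13_Contig_15024 (exact permutation p = 0.141, adjusted p = 0.212). The ratio of the Z3 to the Z1 unigene was 1.13 to 1.43 in young larvae, 0.981 to 1.15 in mature larvae, 0.632 to 0.952 in subimagoes and 1.05 to 1.38 in imagoes. It differed between stages (exact permutation p = 0.00825, adjusted p = 0.0247), with subimagoes below all other libraries. Without subimago replicate 3, the lowest at 0.632, the exact permutation p was 0.0724 before adjustment, against 0.00825 with all 12 stage libraries.

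**Figure D4:**
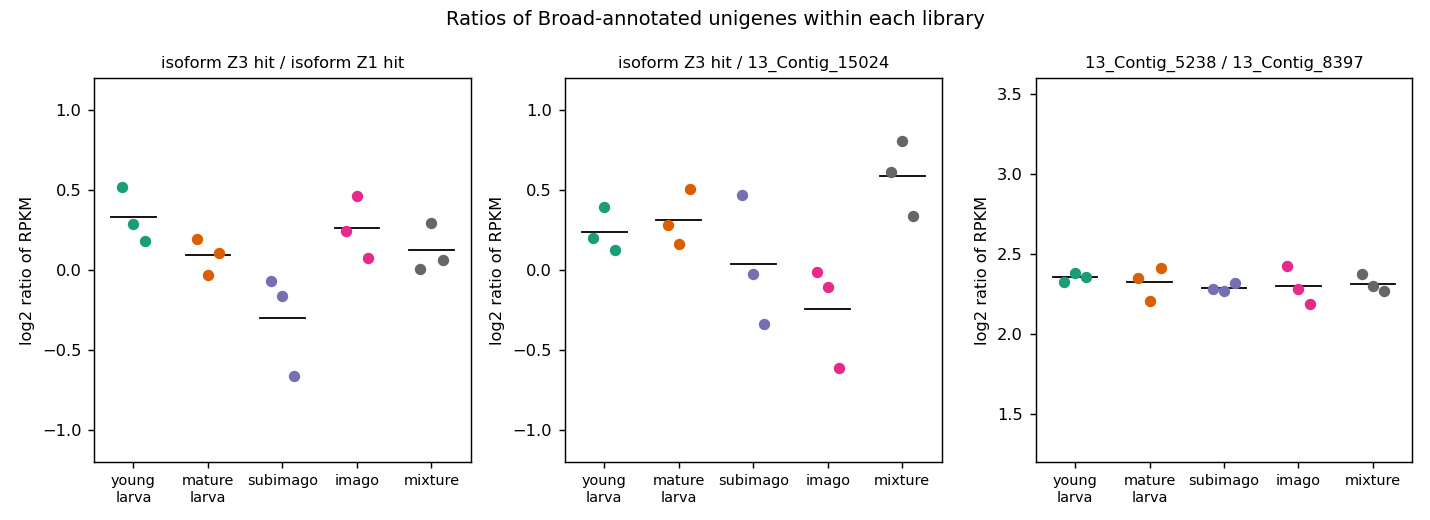
Log2 ratio of RPKM within each library for 3 pairs of unigenes named Broad-complex (points are libraries, bars group means; the third panel has another range of the same length). The Z3 to Z1 ratio was lowest in subimagoes, at 0.632 to 0.952 times, and the ratio of 13_Contig_5238 to 13_Contig_8397 stayed at 4.56 to 5.37 times in all stage libraries.

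The unigenes most like each of the 4, by Pearson's r of log2(CPM + 1) over the 12 stage libraries among 6224 tested unigenes with a named arthropod hit, differed between the patterns. Ranked by Spearman's rho instead, 1, 0, 2 and 0 of the 5 named for the Z3, Z1, isoform 6 and isoforms 1/2/3/4/5 unigene stayed among the first 5. For the Z3 unigene the first 5 were a zinc finger protein named Xfin (r = 0.994), apolipoprotein D, a lipocalin that carries small lipids (r = 0.993), an x globin, an annotated ribosomal protein S23e, and jagged-1, a Notch ligand (r = 0.991). For the Z1 unigene they were the Z3 unigene itself (r = 0.991), palmitoyl-protein thioesterase 1, a lysosomal enzyme (r = 0.990), the same x globin, a SID1 transmembrane protein and the matrix protein ig-h3 (r = 0.987). For the isoform 6 unigene they were 2 metalloendopeptidases (r = 0.981 and 0.964), the enzyme of phospholipid synthesis that makes CDP-diacylglycerol (13_Contig_2526, r = 0.975), the chemosensory-type protein OS-D2c (r = 0.968) and an ultraviolet-sensitive opsin (r = 0.967). For the isoforms 1/2/3/4/5 unigene they were mortality factor 4-like protein 1, a chromatin protein (r = 0.999), ribosomal RNA processing protein 1, U3 small nucleolar RNA-interacting protein 2, a checkpoint kinase and the mitochondrial DNA polymerase subunit gamma-1 (r = 0.998).

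Broad acts within the response to ecdysone, whose receptor is a pair of EcR and ultraspiracle (the retinoid X receptor of other animals), and in many insects under juvenile hormone, which is sensed by Methoprene-tolerant and acts through Kr-h1. Of 12 unigenes of hormone receptors and early genes, 11 were tested, with 3 called up and 1 called down in mature against young larvae, 0 up and 2 down in subimagoes against mature larvae, and 0 up and 3 down in imagoes against subimagoes, where 35.1%, 23.1% and 16.0% of all unigenes were called. Their median log2 changes were 0.47, -0.33 and -1.14, against -0.054, -0.28 and -0.020 over all unigenes tested. Scaled by library totals alone, the first of these splits was 0 up and 2 down and the second 1 up and 0 down, and without mature larva replicate 1 the second was 0 and 0, as it was without any 1 of the subimago libraries. Without mature larva replicate 3 the second split was 3 up and 4 down and the third 0 up and 5 down. The EcR isoform B unigene (13_Contig_7613) and the most abundant E75 unigene (13_Contig_1952, an early nuclear receptor) were not called at any of the 3 steps.

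From subimago to imago, where 0 of the 4 Broad-complex unigenes were called, HR3, an early-late nuclear receptor, fell. HR3 (13_Contig_1820) had 31.2, 36.4 and 28.5 CPM in imagoes, against 350, 268 and 284 CPM in subimagoes, a log2 change of -3.23 ± 0.57 (adjusted p = 0.00250). The retinoid X receptor unigene (13_Contig_6439) had 2.45, 4.83 and 3.77 CPM in imagoes, against 11.0, 11.0 and 10.3 CPM in subimagoes (log2 change -1.55 ± 0.37, adjusted p = 0.0128). Kr-h1 (13_Contig_11936) had 7.38, 17.2 and 14.5 CPM in imagoes, against 58.3, 37.2 and 40.3 CPM in subimagoes (log2 change -1.79 ± 0.41, adjusted p = 0.0116), and it was not called at the earlier steps, where the Z3 and Z1 unigenes fell. The call of the retinoid X receptor was lost without imago replicate 1 (adjusted p = 0.0668) or 3 (0.0510), and that of Kr-h1 without imago replicate 1 (0.0516) or subimago replicate 1 (0.0542). Methoprene-tolerant (13_Contig_51) was higher in imagoes than in subimagoes (log2 change 0.73 ± 0.16, adjusted p = 0.00860), but not without subimago replicate 1 (adjusted p = 0.0546). It was also called as higher in mature than young larvae (0.52 ± 0.16, adjusted p = 0.0218), a call that was lost under each other scaling, with a log2 change of -0.029 by library totals. From young to mature larva, FTZ-F1 (13_Contig_7794), a nuclear receptor expressed as ecdysone falls, was called as higher (2.48 ± 0.78, adjusted p = 0.0265), but mature larva replicate 3 held 705 CPM, against 72.7 and 54.6 CPM in replicates 1 and 2 and 30.8 to 70.8 CPM in young larvae. Without that library the log2 change was 0.41 (adjusted p = 0.356), and the call was also lost without young larva replicate 2 (0.0767) or 3 (0.0999). Mature larva replicate 3 was also the highest mature larva library of the isoform 6 unigene, at 46.8 RPKM, and the lowest of the Z3 and Z1 unigenes.

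**Figure D5:**
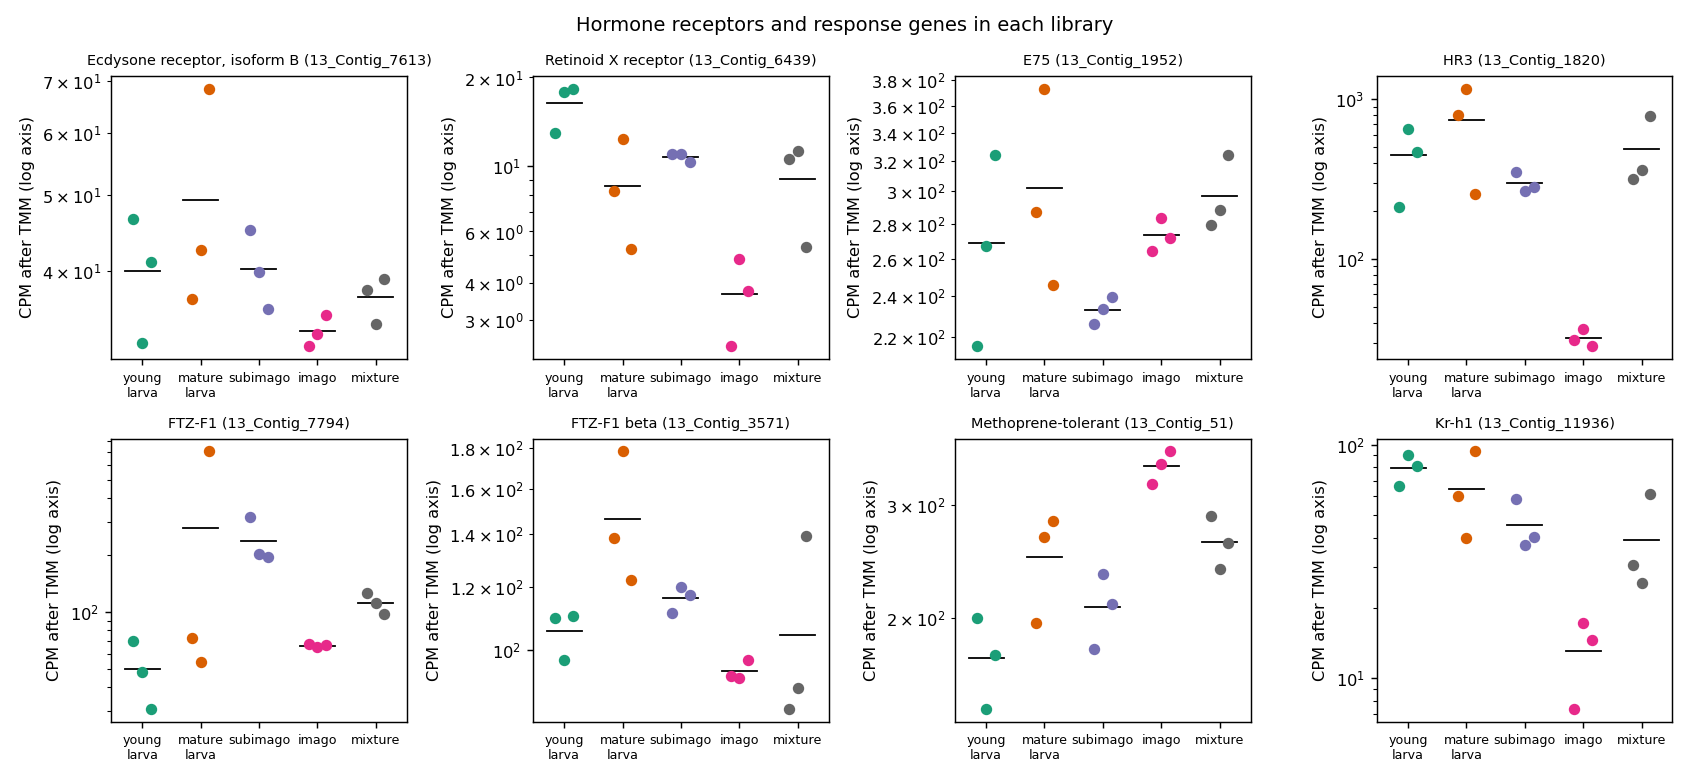
CPM after TMM scaling (log axis, each panel with its own range) of 8 unigenes of ecdysone and juvenile hormone receptors and response genes in each library; points are libraries and bars group means. HR3, the retinoid X receptor and Kr-h1 were lowest in imagoes, and 1 mature larva library of FTZ-F1 stood at 705 CPM.

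Other BTB zinc finger genes were set beside the 4, since they share the BTB domain with Broad. Of 22 tested (of 23), 14 rose and 2 fell in mature relative to young larvae, 6 rose and 0 fell in subimagoes relative to mature larvae, and 1 rose and 3 fell in imagoes relative to subimagoes (7 and 3 by DESeq2), with median log2 changes of 1.14, 0.37 and 0.32. Over all unigenes, 25.3% rose and 9.73% fell at the first of these steps, 8.98% and 14.2% at the second, and 6.74% and 9.26% at the third, with medians of -0.054, -0.28 and -0.020. The count of 6 was 12 by DESeq2 and ran from 1 to 9 with single libraries left out, with 1 without mature larva replicate 1 or subimago replicate 2 or 3, and 9 without mature larva replicate 3. Pipsqueak (13_Contig_8417), a BTB protein that binds DNA, had 101, 64.8 and 83.1 CPM in subimagoes, against 10.8, 22.1 and 3.33 CPM in mature larvae (log2 change 2.78 ± 0.57, adjusted p = 0.0100), and 6.58, 5.05 and 2.89 CPM in imagoes. A further list held unigenes found by the names of genes reported to depend on Broad in Drosophila or moths, with any caspase or aromatic-L-amino-acid decarboxylase taken in. A match by name does not show that a unigene is the gene so reported. Of these unigenes, 11 of 16 were tested, with 4 called up and 2 called down in mature against young larvae, 4 up and 1 down in subimagoes against mature larvae and 0 up and 4 down in imagoes against subimagoes. Over all unigenes, 35.1%, 23.1% and 16.0% were called at these steps. The median log2 changes of the list were -1.42, 0.61 and -0.50. The count of 2 down was 5 without mature larva replicate 1, and the count of 4 up was 2 without subimago replicate 2 or 3. A pupal cuticle protein unigene (13_Contig_826) had 1363, 496 and 501 CPM in subimagoes, against 22.9, 30.2 and 13.2 CPM in mature larvae (log2 change 5.15 ± 0.70, adjusted p = 0.00159), 1.49 to 1.95 CPM in imagoes and 55.9 to 64.2 CPM in young larvae. The subimago thus held the highest level of this cuticle unigene among the stages. Of the 4 Broad-complex unigenes, the isoforms 1/2/3/4/5 unigene alone was called as higher in subimagoes than in mature larvae. That call was lost without mature larva replicate 1 or subimago replicate 2, and the unigene stayed high in imagoes, at 263 to 319 RPKM. A link between this cuticle unigene and any of the 4 was not tested.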

How the data were processed

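Per the labels' protocols, TruSeq libraries of whole-body RNA were sequenced on an Illumina HiSeq as paired reads of 125 bp, poor and ribosomal RNA reads were removed, and unigenes were assembled with CLC Genomics Workbench and CAP3. The submitters' processing notes name DESeq. For the read mapper, counter and strand setting: not given in the sources used here. The deposited table holds the authors' counts of reads per unigene and library, and the authors' RPKM values, which equal count over unigene length and library total within a relative difference of 3.42e-07.

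Counts of all 15 libraries were fitted with edgeR 4.0.16 in R 4.3.3 (TMM scaling, filterByExpr, glmQLFit with robust, glmQLFTest, 5 groups). This tested 34131 unigenes, and p-values were adjusted by Benjamini-Hochberg over all of them. RPKM gave levels, shares and ratios, tested by exact two-sided permutation. DESeq2 1.42.0, other scalings and filters, a replicate block and leaving out each library were alternatives. The fit and the exact test were tested on simulated data.

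Named genes are the 4 listed unigenes, others with a best hit named Broad, called members of the hormone lists, the 5 most alike unigenes, and the 3 smallest adjusted p of the other lists. Members and lists were chosen with earlier results of these data known. EcR-B and E75, which were not called, are named besides. The narrower marker lists, the muscle ratio and the within-library ratios were chosen after values were seen.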

Additional observations from a re-analysis of the deposited data

How the results depend on the processing

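From young to mature larva, from young larva to subimago, from mature larva to imago and between young larvae and the mixture, all 4 Broad-complex unigenes kept direction and call under every alternative run. From mature larva to subimago 4 were called, 2 without a filter on low counts and 1 to 4 with single libraries left out. Without that filter the log2 change was -2.49 for Z3 (adjusted p = 0.0527) and -2.04 for Z1 (adjusted p = 0.0767). With single libraries left out it ran from -2.76 to -1.55 for Z3, from -2.32 to -1.22 for Z1 and from 0.46 to 0.73 for isoforms 1/2/3/4/5. From subimago to imago 0 were called, 1 with scaling on arthropod hits and 0 to 1 with single libraries left out. The 1 was isoform 6, at -0.97 with that scaling (adjusted p = 0.0411) and -1.02 to -0.62 with single libraries left out. With that scaling isoforms 1/2/3/4/5 turned to -0.0054 and 13_Contig_8397 to -0.0088, where neither was called. Against the mixture, mature larvae had 0 called, 1 by DESeq2 and with the stricter filter, and 0 to 1 with single libraries left out, and Z3 ran from -0.13 to 1.06. Subimagoes had 0 called, 2 by DESeq2, 1 with scaling on arthropod hits, and 0 to 1 with single libraries left out. Imagoes had 2 called, 3 by DESeq2 and with scaling on arthropod hits, 1 without the filter and 1 to 4 with single libraries left out. The cause was not tested, except that leaving out libraries leaves fewer samples.

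Library totals alone moved the median log2 change of all unigenes by -0.52, 0.27 and 0.15 at the 3 steps, DESeq2 size factors by -0.18, 0.01 and 0.12, and scaling on arthropod hits by -0.23, -0.18 and -0.09. Over all unigenes, those called higher and lower in mature than young larvae numbered 8652 and 3322, against 5384 and 5010 by library totals, and 9932 lower without mature larva replicate 1. Those lower in subimagoes than mature larvae numbered 4833, against 2007 without the filter. By DESeq2, 5260 were lower in mature than young larvae (3322 by edgeR), 5522 higher in subimagoes than mature larvae (3064 by edgeR) and 4485 higher in imagoes than subimagoes (2300 by edgeR). Replicate numbers were not taken as pairs in the main fit. Of 30 same-numbered pairs, 2 had deviations from their group means that correlated over 0.1. These were young larva 1 with mature larva 1 (r = 0.648) and young larva 2 with mature larva 2 (r = 0.678). Young larva 3 with mature larva 3 had r = -0.352, and the differently numbered young larva 2 and mature larva 3 had r = 0.537. With 3 libraries per group, these values cannot decide whether libraries of the 2 larval stages were paired. With a replicate block, 4, 4 and 0 of the 4 unigenes were called at the 3 steps, as without it, and 2880 unigenes were lower in subimagoes than mature larvae, against 4833. Unigenes have no genome position here, and partial or near-copy unigenes limit what each level means.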

Other observations

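Genes of ecdysteroid synthesis, the pathway that makes the hormone to which Broad responds, were all tested (6 of 6). From young to mature larva 4 rose and 1 fell, with a median log2 change of 1.62, where 35.1% of all unigenes were called and their median was -0.054. Ecdysone 20-monooxygenase (13_Contig_3366), which turns ecdysone into its active form, had a log2 change of 9.69 ± 0.42 (adjusted p = 2.99e-09), and CYP302A1 (13_Contig_3006), an enzyme of ecdysone synthesis, one of 2.60 ± 0.23 (adjusted p = 1.51e-06). From mature larva to subimago 1 rose and 1 fell, which was 0 and 0 without mature larva replicate 1 or subimago replicate 2 or 3, where 23.1% of all unigenes were called. From subimago to imago 0 were called by edgeR, 0 by DESeq2 and 0 had an unadjusted p under 0.05 in edgeR, where 16.0% of all unigenes were called.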
